A study of Mus musculus with 9 samples.

Results

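The genes described here mark the main classes of cortical interneurons, the inhibitory nerve cells that release GABA. They are 10 genes, chosen by symbol, out of the 20731 gene symbols that were counted. Of these, 7 encode precursors of secreted peptides: Sst (somatostatin), Npy (neuropeptide Y), Vip (vasoactive intestinal peptide), Cck (cholecystokinin), Crh (corticotropin-releasing hormone), Cort (cortistatin) and Tac2 (neurokinin B). The other genes encode the calcium-binding proteins parvalbumin (Pvalb) and calretinin (Calb2) and the membrane protein Lamp5. All 10 genes were among the 14746 genes with enough counts to be tested.

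RNA was taken on day 2 after modelling from 9 male C57BL/6J mice aged 8 to 10 weeks, with 3 mice in each of 3 groups. Thrombosis of the superior sagittal sinus (cerebral venous sinus thrombosis, CVST) was induced with ferric chloride in every mouse, so no uninjured animals enter any comparison. The CVST group had thrombosis alone, and in the CVST+Ligation group the deep cervical lymph nodes, which drain the meningeal lymphatic vessels, were also ligated. The 4-PBA group had thrombosis, ligation and 4-phenylbutyric acid, a chemical chaperone that dampens endoplasmic reticulum stress. Per the methods the dose was 100 mg/kg, injected into the abdomen 30 min before modelling, whereas the study description places it after the ligation. Solvent injection is mentioned for control mice without naming which of these groups received it.

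Interneurons are a minority of cortical neurons, and each class is recognised by the peptides or calcium-binding proteins it makes. Sst cells act on the dendrites of pyramidal neurons, Pvalb cells act on their cell bodies and axons, and Vip cells act mostly on other interneurons. Many of the genes are not restricted to these cells. Cck is also made by cortical pyramidal neurons, Calb2 by cells of the thalamus, midbrain and cerebellum, Pvalb by cerebellar Purkinje cells, and Tac2 by the medial habenula and the hypothalamus. Npy, Crh, Sst and Vip are made in the hypothalamus as well. In RNA from a whole piece of tissue, a lower number of cells of a class and less RNA in each cell cannot be told apart.

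Each sample is labelled as brain, while the study description speaks of cortical tissue. Total counts per library were 18100739 to 25091498, so that 3 counts, used here as the floor of detection, corresponded to 0.12 to 0.166 CPM (counts scaled to library size). Marker genes of cortical excitatory neurons were present in every library, but their summed level was 2047 to 2455 CPM in the CVST group, 630.1 to 1875 CPM in the CVST+Ligation group and 743 to 1049 CPM in the 4-PBA group. The 7 marker genes of midbrain dopamine neurons summed to 17.8 to 19.3, 161 to 195 and 209.8 to 216 CPM in the same order of groups, with Pitx3 at 0 counts in every CVST library and in CVST+Ligation mouse 2. For 6 thalamic genes the sums were 53.4 to 64.2, 142 to 297 and 299 to 573 CPM. For 9 hypothalamic genes they were 5.19 to 42.1, 5.46 to 56.7 and 297 to 579 CPM, with Sim1 at 0 counts in every CVST library and in 2 of 3 CVST+Ligation libraries. The library of CVST+Ligation mouse 2 stood apart. Its 6 cerebellar marker genes summed to 874 CPM against 15.7 to 42.3 CPM in the other libraries, and Gabra6, a receptor subunit of cerebellar granule cells, had 4101 counts there, 119 in CVST+Ligation mouse 3 and 0 in the remaining libraries. The midbrain and thalamic sums were thus higher in every ligated mouse than in any CVST mouse and the cortical sums were lower, whereas the hypothalamic sums of CVST and CVST+Ligation overlapped and the cerebellar sum was high in 1 library. Of the glial and vascular lists, the 4 oligodendrocyte genes summed to 2022 to 2575 CPM in CVST, 2030 to 4509 CPM in CVST+Ligation and 3408 to 5619 CPM in 4-PBA. The sums for astrocytes, endothelium, hippocampus and choroid plexus overlapped in all 3 comparisons. The hippocampal sum in CVST (170.0 to 379 CPM) was mostly Wfs1 (160.6 to 370 CPM). Of the 5 hippocampal genes, 4 had edgeR estimates above 0 after ligation and 1 below, with a median log2 fold change of 2.28. The 4 microglial genes summed to 236 to 278, 185 to 247 and 203 to 224 CPM in the same order of groups. The 4 olfactory bulb genes summed to 5.52 to 6.67, 7.56 to 16.9 and 8.99 to 10.7 CPM. The part of these region and cell type markers in the results below was not tested.

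The genes differ in size and place. On build GRCm38 (GENCODE vM21), Sst lies on chromosome 16 (23889573 to 23890958, minus strand), Npy on chromosome 6 (49822710 to 49829507, plus strand), Vip on chromosome 10 (5639218 to 5647617, plus strand) and Cck on chromosome 9 (121489824 to 121495694, minus strand). Calb2 lies on chromosome 8 (110137502 to 110168210, minus strand), Pvalb on chromosome 15 (78191114 to 78206400, minus strand), Lamp5 on chromosome 2 (136052239 to 136069917, plus strand) and Tac2 on chromosome 10 (127724478 to 127731768, plus strand). Cort lies on chromosome 4 (149125034 to 149126763, minus strand) and Crh on chromosome 3 (19693401 to 19695396, minus strand). No exon of the 10 genes overlapped an exon of another annotated gene.

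Several neuropeptide genes are textbook targets of the cAMP pathway, whose factor CREB binds the palindrome TGACGTCA or its shorter form TGACG. Promoter sequences (RefSeq, build GRCm38.p6) were at hand for 8 of the 10 genes, as 10 windows of 250 bases upstream of a start site. On either strand, TGACGTCA was found in 1 of these windows, that of Sst, and in 1.55% of 32851 mouse promoter windows of the same length. The shorter TGACG, which every full palindrome also contains, was found in 4 windows (Sst, Vip, Cck and Cort) and in 17.8% of all windows. The stretches that hold these letters are shown to place them near the start of the genes, written 5′ to 3′ on the strand of the gene with the matches on either strand in capitals.
Sst, 30 bases around the match, chr16:23890874-23890903, minus strand: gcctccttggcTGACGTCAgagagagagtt
Vip, 120 bases before the start, chr10:5639098-5639217, plus strand: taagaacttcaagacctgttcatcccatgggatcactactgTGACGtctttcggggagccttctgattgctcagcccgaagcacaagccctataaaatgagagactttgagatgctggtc
Cck, 120 bases before the start, chr9:121495695-121495814, minus strand: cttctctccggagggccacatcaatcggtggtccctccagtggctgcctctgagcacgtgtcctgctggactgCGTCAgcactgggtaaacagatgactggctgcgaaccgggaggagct
Cort, 120 bases before the start, chr4:149126764-149126883, minus strand: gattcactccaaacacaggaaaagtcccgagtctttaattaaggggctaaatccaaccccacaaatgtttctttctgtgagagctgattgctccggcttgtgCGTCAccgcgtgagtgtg
The matches begin at position -48 in Sst, -79 in Vip, -47 in Cck and -18 in Cort, counted back from the RefSeq start. By the GENCODE position given above, however, the Sst stretch lies inside the Sst gene, downstream of its annotated start. Such a match is a string of letters and no measured binding. The windows of Npy, Tac2, Pvalb and Lamp5 did not hold the letters TGACG, which says nothing of CREB at these genes. The motifs TATAAA and CANNTG were also searched and were found in 1 and 7 of the 10 windows, against 12.4% and 66.2% of all windows.

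The interneuron genes spanned a wide range of levels. Levels of different genes can be compared only per length, and the deposited FPKM values (counts divided by gene length and by library size) served for this. The length behind them equalled the coding length of each of the 10 genes in GENCODE (for example 348 bases for Sst and 840 bases for Lamp5), although the exons of Vip cover 3402 bases in all against 513 coding bases. If reads of the untranslated parts were counted as well, the FPKM values of such genes are too high, so the order is approximate. Sst had the highest mean level over the 9 libraries, 639 FPKM ± 230.0 (SD), and was above Cck in 8 of 9 libraries. Cck (428 ± 214 FPKM) and Pvalb (418 ± 342 FPKM) followed, with Cck above Pvalb in 5 of 9 libraries, so their order did not hold beyond the spread. Npy had 269.7 ± 146 FPKM, Calb2 150.5 ± 142 FPKM and Lamp5 102 ± 86.0 FPKM, and each was above its lower neighbour in 6, 6 and 9 of 9 libraries. The exceptions for Calb2 were the 3 CVST mice, in which Calb2 (8.82, 8.02 and 55.4 FPKM) was below Lamp5 (144, 317 and 90.7 FPKM). The step from Lamp5 to Vip (28.5 ± 15.6 FPKM) was thus the only step of this order seen in all 9 libraries. Tac2 (20.5 ± 13.6 FPKM), Cort (11.4 ± 6.69 FPKM) and Crh (7.24 ± 2.05 FPKM) had the lowest means, and their ranges over the libraries overlapped. Vip was above Tac2 in 6 of 9 libraries, and in all 3 4-PBA mice Tac2 (33.7, 44.9 and 30.5 FPKM) was above Vip (15.3, 13.2 and 13.4 FPKM). Tac2 was above Cort in 7 of 9 libraries and Cort above Crh in 6 of 9.

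**Figure D1:**
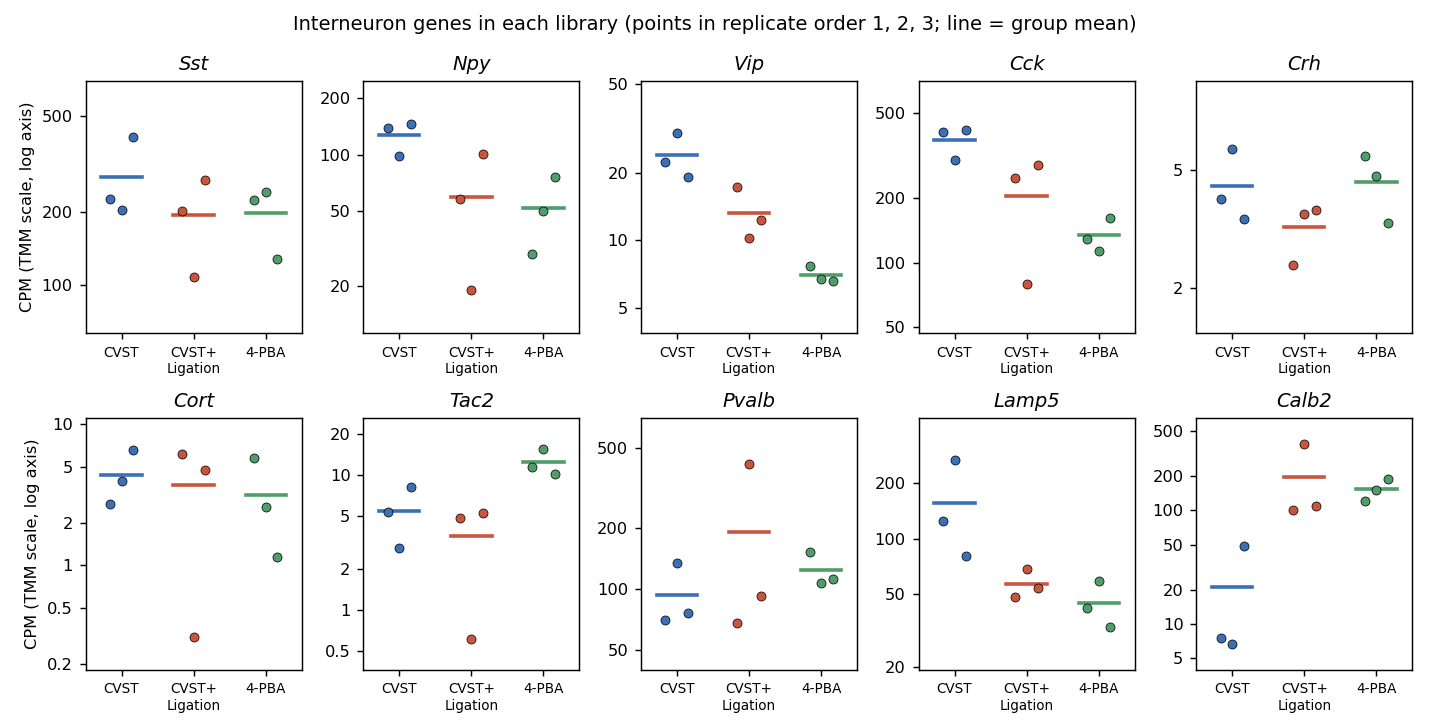
Level of each interneuron gene in CPM on a log axis in the 9 libraries, with the points of each group in replicate order and a line at the group mean (3 mice per group). The 3 Vip points of the 4-PBA group lie between 6.55 and 7.69 CPM, below every point of both other groups, and CVST+Ligation mouse 2 is the low point of Sst, Npy, Cck, Cort and Tac2 and the high point of Pvalb and Calb2.

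Among the peptide genes, Vip was counted at 22.4, 30.3 and 19.2 CPM in the 3 CVST mice, at 17.3, 10.2 and 12.3 CPM in the CVST+Ligation mice and at 7.69, 6.73 and 6.55 CPM in the 4-PBA mice. The groups followed each other without overlap, from CVST down to 4-PBA. The means were 24.0 ± 5.74, 13.3 ± 3.65 and 6.99 ± 0.613 CPM (SD, n = 3 each), resting on 142 to 684 counts per library. Cck, a peptide of basket cells and of pyramidal neurons, had 407, 300.3 and 414 CPM in CVST, 249, 79.7 and 285 CPM in CVST+Ligation and 129, 113 and 162 CPM in 4-PBA. All CVST mice were above all ligated mice, whereas CVST+Ligation mouse 2 lay below all 4-PBA mice and the other CVST+Ligation mice lay above them.

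Npy, a peptide of Sst-class and neurogliaform interneurons, had 138, 98.6 and 145 CPM in CVST, 57.8, 19.1 and 101 CPM in CVST+Ligation and 29.4, 50.3 and 75.8 CPM in 4-PBA. CVST+Ligation mouse 3, with the highest level of its group, lay just above the lowest CVST mouse, and the 4-PBA mice lay below all CVST mice. Sst had 227, 204 and 410.5 CPM, then 203, 108 and 272 CPM, then 224, 242 and 129 CPM in the same order of groups. Its 3 groups overlapped, with CVST mouse 3 high and CVST+Ligation mouse 2 low. Cort, a relative of somatostatin found in part of the same cells, had 2.72, 3.95 and 6.56 CPM in CVST, 6.16, 0.309 and 4.75 CPM in CVST+Ligation and 5.80, 2.61 and 1.14 CPM in 4-PBA. The low value of CVST+Ligation mouse 2 rested on 6 counts, and the groups overlapped over most of their range.

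Tac2, the precursor of neurokinin B, had 5.31, 2.88 and 8.14 CPM in CVST, 4.84, 0.618 and 5.23 CPM in CVST+Ligation and 11.5, 15.5 and 10.1 CPM in 4-PBA. The 4-PBA mice lay above all mice of both other groups, and CVST+Ligation mouse 2 was again the lowest, with 12 counts. Crh, the peptide that starts the hormonal stress response and is also made by a part of the Vip and Sst cells, had 3.99, 5.85 and 3.42 CPM, then 2.40, 3.56 and 3.65 CPM, then 5.58, 4.75 and 3.32 CPM. It was the most even of the 10 genes, with a 2.44-fold span from the lowest to the highest library, and its groups overlapped.

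Calb2, which encodes calretinin, spanned the widest range of the 10 genes, 57.0-fold. It had 7.61, 6.74 and 49.0 CPM in CVST, 101, 384 and 109 CPM in CVST+Ligation and 121, 151 and 190.3 CPM in 4-PBA. CVST mouse 3 stood well above the other CVST mice and still below every ligated mouse. Pvalb had 70.4, 134 and 76.0 CPM in CVST, 67.7, 415 and 92.5 CPM in CVST+Ligation and 152, 108 and 113 CPM in 4-PBA. Here CVST+Ligation mouse 2, the library with the cerebellar genes, was far above all others. The other CVST+Ligation mice lay below all 4-PBA mice, and both of these groups overlapped with CVST. Lamp5, a membrane protein of neurogliaform and related interneurons that is also found in some cortical pyramidal neurons, had 125, 266 and 80.2 CPM in CVST, 48.3, 68.6 and 54.1 CPM in CVST+Ligation and 42.0, 59.2 and 33.0 CPM in 4-PBA. All CVST mice lay above all ligated mice, and CVST mouse 2 was the highest.

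Over the 10 genes, CVST+Ligation mouse 2 held the lowest value of 5 genes and the highest of 2, and CVST mouse 3 held the highest value of 4 genes. Over all genes tested, CVST+Ligation mouse 2 held the lowest value of 16.6% and the highest of 17.3%, and CVST mouse 3 the highest of 21.3%.

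The comparison of CVST+Ligation with CVST addresses what blocking lymphatic drainage adds to the thrombosis. After ligation, Vip, Cck and Lamp5 were lower in all mice than in any CVST mouse and Calb2 was higher, while Sst, Npy, Cort, Crh, Tac2 and Pvalb overlapped between the groups. None of these differences passed the quasi-likelihood test of edgeR at an adjusted p below 0.05 (Benjamini-Hochberg, over all genes tested), which called 3 genes in all, 0.0203% of those tested. At an unadjusted p below 0.05, Calb2 (higher) and Lamp5 and Vip (lower) were counted among the 10 genes, against 9.64% of all genes tested (5.47% higher and 4.18% lower).

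The fitted log2 fold change of Calb2 was 3.24 ± 0.82 (SE), a 9.42-fold higher level (unadjusted p = 0.00311, adjusted p = 0.294). For Lamp5 it was -1.46 ± 0.40, a 2.75-fold lower level (unadjusted p = 0.00477, adjusted p = 0.308). For Vip it was -0.85 ± 0.24, a 1.80-fold lower level (unadjusted p = 0.00613, adjusted p = 0.322). These unadjusted values stayed below 0.05 whichever of the 6 libraries was left out, but the sizes moved. The log2 fold change of Calb2 was 2.32 ± 0.73 without CVST+Ligation mouse 2 and 4.76 ± 0.68 without CVST mouse 3, and that of Lamp5 was -0.84 ± 0.28 without CVST mouse 2. DESeq2, run as an alternative, gave adjusted p-values of 0.0246 for Lamp5 and 0.0256 for Calb2, but it called 264 genes in all.

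Cck (log2 fold change -0.87 ± 0.39, unadjusted p = 0.0501) and Npy (-1.10 ± 0.52, unadjusted p = 0.0623) missed the unadjusted threshold in the fit of all libraries. For Cck it was met in 4 of the 6 fits that leave out a library, with a log2 fold change of -0.49 ± 0.20 without CVST+Ligation mouse 2. For Npy it was met in 1 of these fits (-1.72 ± 0.52, unadjusted p = 0.00932, without CVST+Ligation mouse 3), and the estimate was -0.68 ± 0.39 without CVST+Ligation mouse 2. The threshold was also missed by Sst (-0.53 ± 0.38), Crh (-0.47 ± 0.32), Tac2 (-0.60 ± 0.63) and Cort (-0.23 ± 0.85), with unadjusted p-values from 0.179 to 0.794. The estimate for Pvalb was 1.04 ± 0.60 (unadjusted p = 0.114) and rested on 1 library: without CVST+Ligation mouse 2 it was -0.23 ± 0.30. Leaving out the same mouse turned the estimate for Cort to 0.31 ± 0.60. The estimates of 8 of the 10 genes were below 0, and their median was -0.56 against 0.0021 over all genes tested. Groups that did not overlap were counted for 4 of the 10 genes, 1 higher and 3 lower, and for 13.8% of all genes tested, 6.61% higher and 7.21% lower.

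**Figure D2:**
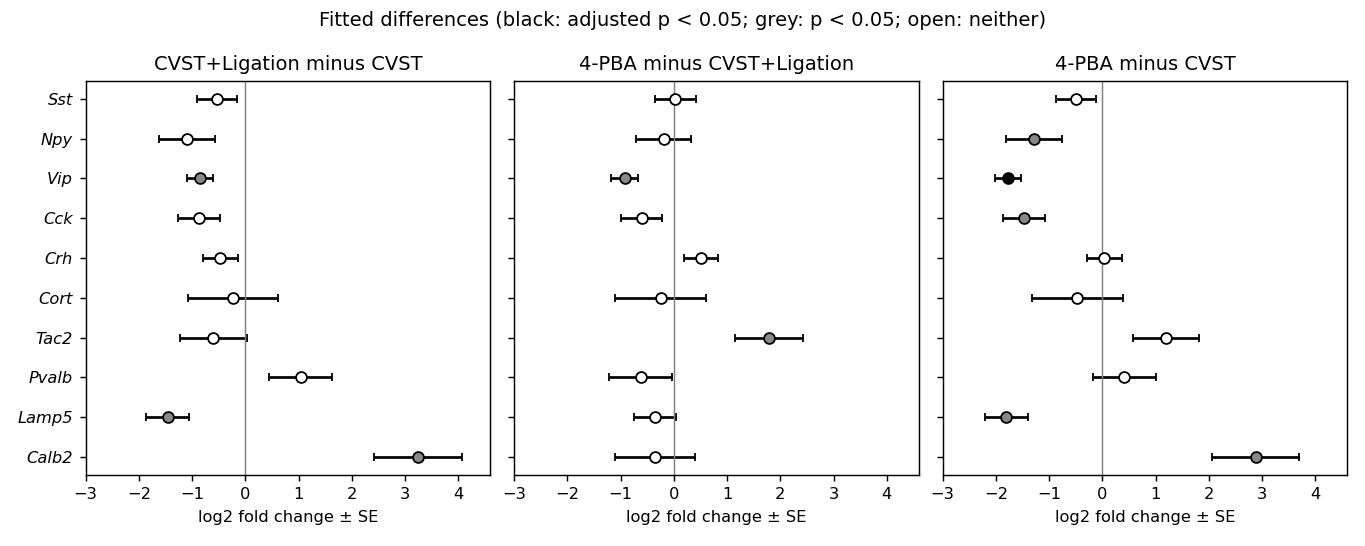
Log2 fold change of each interneuron gene with its standard error in the 3 comparisons, from the edgeR fit of 9 libraries. Vip is the only gene drawn in black (adjusted p below 0.05) and only in the comparison of 4-PBA with CVST, at -1.78, while Calb2 lies at 3.24 after ligation and 2.87 after ligation with 4-PBA.

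The comparison of 4-PBA with CVST+Ligation sets ligated mice given the drug against ligated mice without it. As stated above, the sources differ on the time of the injection and do not name the groups given solvent. Vip was lower and Tac2 was higher in all 4-PBA mice than in any CVST+Ligation mouse, and the other 8 genes overlapped. edgeR called no gene of the whole table after adjustment (0%, 0 genes), and 3.23% of all genes had an unadjusted p below 0.05 (476 genes). Among the 10 genes, Vip and Tac2 met that unadjusted threshold, with 1.42% of all genes lower and 1.81% higher. Groups that did not overlap were found for 4.22% of all genes in the lower direction and 3.51% in the higher (7.73% in both).

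Vip had a log2 fold change of -0.93 ± 0.25, a 1.90-fold lower level (unadjusted p = 0.00405, adjusted p = 0.9998 in edgeR). Tac2 had a log2 fold change of 1.79 ± 0.64, a 3.45-fold higher level (unadjusted p = 0.0191, adjusted p = 0.9998 in edgeR). Without 4-PBA mouse 2, the highest mouse, Tac2 missed the unadjusted threshold (unadjusted p = 0.0532). Habenular and hypothalamic genes, from regions where Tac2 is also made, were summed beside it. The 4 habenular genes summed to 3.93, 8.19 and 5.76 CPM in the CVST+Ligation mice and to 5.26, 17.8 and 31.4 CPM in the 4-PBA mice, and the hypothalamic sums are given above. Their part in the Tac2 result was not tested.

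The estimates for the other 8 genes lay between -0.63 ± 0.59 (Pvalb) and 0.51 ± 0.32 (Crh). Pvalb, Calb2 and Sst changed sign without CVST+Ligation mouse 2, to 0.65 ± 0.30, 0.57 ± 0.73 and -0.25 ± 0.34. Without that mouse Cck, at -0.98 ± 0.19, had an unadjusted p of 0.000736 and an adjusted p of 0.273, and the count of all genes with an unadjusted p below 0.05 was 1497.

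In the comparison of 4-PBA with CVST, which joins ligation and drug, Vip fell by 1.78 ± 0.25 on the log2 scale, a 3.43-fold lower level. This was the only change of the 10 genes that passed adjustment (unadjusted p = 4.15e-05, adjusted p = 0.0408 in edgeR), among 18 genes called in all, 0.122% of those tested. In the same comparison all 4 oligodendrocyte genes were higher without overlap, against 12.3% of all genes tested, and all 4-PBA mice had lower cortical sums than any CVST mouse. Their part in the Vip value was not tested. The adjusted p of Vip lay close to the threshold. It was 0.05003 with total counts as the scale and 0.0616 with the stricter filter on counts. In 5 of the 6 fits that leave out a CVST or a 4-PBA mouse it was 0.0658 to 0.173, while all of these fits gave a log2 fold change between -1.93 and -1.56. Leaving CVST+Ligation mouse 2 out of the shared fit, a choice made after seeing its cerebellar genes, gave adjusted p-values of 0.0102 for Vip and 0.00895 for Cck, with 541 genes called in all.

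Lamp5 (log2 fold change -1.81 ± 0.40, unadjusted p = 0.00132, adjusted p = 0.0848) and Cck (-1.47 ± 0.39, unadjusted p = 0.00409, adjusted p = 0.125) were lower in every 4-PBA mouse than in any CVST mouse without passing adjustment in edgeR. Npy was also lower without overlap (-1.29 ± 0.52, unadjusted p = 0.0341, adjusted p = 0.276), but the unadjusted threshold was met in only 2 of the 6 fits that leave out a library, with unadjusted p-values up to 0.114 (without 4-PBA mouse 1). Calb2 was higher without overlap (2.87 ± 0.81, unadjusted p = 0.00577, adjusted p = 0.142). Over the fits that leave out a library the estimates ran from -2.14 to -1.18 for Lamp5, lowest without CVST mouse 3 and nearest to 0 without CVST mouse 2, and from 2.46 without CVST mouse 2 to 4.41 without CVST mouse 3 for Calb2. Leaving out CVST mouse 3 moved the edgeR adjusted p of Lamp5 to 0.0379 and of Calb2 to 0.0344, and 162 genes were then called in all. Tac2 was higher without overlap and missed the unadjusted threshold (1.19 ± 0.62, unadjusted p = 0.0869). Sst, Cort, Pvalb and Crh had estimates of -0.50 ± 0.38, -0.48 ± 0.85, 0.41 ± 0.59 and 0.04 ± 0.32, with unadjusted p-values from 0.220 to 0.910.

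At an unadjusted p below 0.05, 4 of the 10 genes were lower and 1 was higher, against 7.33% and 8.07% of all genes tested (15.4% in both directions). Groups that did not overlap were counted for 6 of the 10 genes, 4 lower and 2 higher, against 23.7% of all genes tested (11.5% lower and 12.3% higher). The comparisons share libraries, so the lower Vip, Lamp5 and Cck estimates of the 2 comparisons with CVST are not independent of each other.

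**Figure D3:**
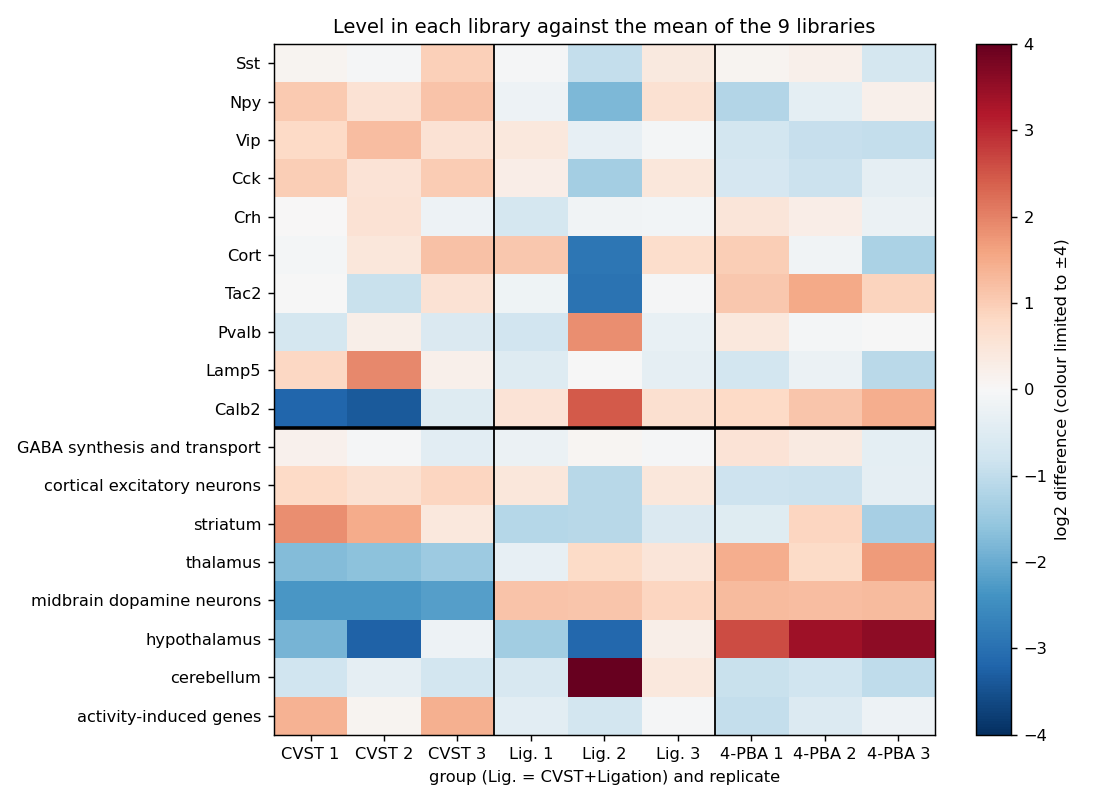
Log2 difference of each library from the mean of the 9 libraries for the 10 interneuron genes (upper rows) and for the summed levels of gene lists (lower rows), with the groups divided by vertical lines. The column of CVST+Ligation mouse 2 lies farthest from the mean in Npy, Cck, Cort, Tac2 and Pvalb and in the cerebellar sum of 874 CPM, and the midbrain and thalamic sums are low in all 3 CVST columns.

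Genes of GABA synthesis and handling, which interneurons share, were counted beside the peptide genes. The 4 genes of this list (Gad1 and Gad2, which make GABA, Slc32a1, which loads it into vesicles, and Abat, which breaks it down) summed to 1174, 1007 and 772 CPM in CVST, to 887, 1106 and 1000.1 CPM in CVST+Ligation and to 1527, 1344 and 801 CPM in 4-PBA. The sums of the 3 groups overlapped. No member had an unadjusted p below 0.05 after ligation or between 4-PBA and CVST+Ligation, against 9.64% and 3.23% of all genes tested. In the comparison of 4-PBA with CVST 1 of 4 had it, against 15.4% (Abat, log2 fold change 0.81 ± 0.29, unadjusted p = 0.0191, and below 0.05 in 4 of the 6 fits that leave out a library). Gad1 had log2 fold changes of -0.18 ± 0.23 after ligation and 0.07 ± 0.23 between 4-PBA and CVST. These genes are also expressed in inhibitory neurons of the striatum, thalamus, midbrain and hypothalamus.

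Of 12 transcription factors of interneuron development and identity, 2 were lower and 1 was higher after ligation at an unadjusted p below 0.05, against 4.18% and 5.47% of all genes tested. Prox1, a factor of interneurons from the caudal ganglionic eminence and also of hippocampal granule cells, had 8.38 ± 1.66 CPM in CVST and 23.6 ± 6.39 CPM in CVST+Ligation (log2 fold change 1.50 ± 0.43, unadjusted p = 0.00658). The lower factors were Satb1 (-0.60 ± 0.25) and Dlx6 (-1.78 ± 0.78), which met the unadjusted threshold in 2 and 1 of the 6 fits that leave out a library. Between 4-PBA and CVST, Satb1, which acts in Sst and Pvalb interneurons, had the smallest p of this list, with 47.7 ± 7.18 CPM against 114 ± 36.4 CPM (-1.26 ± 0.25, unadjusted p = 0.000659, edgeR adjusted p = 0.0635). The sums of cortical excitatory markers given above were also lower in every 4-PBA mouse, and their part in the Satb1 value was not tested. Lhx6, the factor of the Sst and Pvalb lineage, had estimates of -0.33 ± 0.67 after ligation and 0.16 ± 0.67 between 4-PBA and CVST. No factor passed adjustment in any of the 3 comparisons.

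A list of 23 other genes that mark interneuron subtypes gave 5 genes higher and 3 lower after ligation at an unadjusted p below 0.05, against 5.47% and 4.18% of all genes tested, and 2 and 1 of these stayed so in every fit that leaves out a library. Nos1, the neuronal nitric oxide synthase of long-range Sst and Npy cells, had 22.5 ± 5.74 CPM in CVST and 78.9 ± 22.8 CPM in CVST+Ligation (1.81 ± 0.40, unadjusted p = 0.00124). Kit, a receptor tyrosine kinase, had 41.6 ± 11.4 and 87.8 ± 18.5 CPM (1.08 ± 0.30, unadjusted p = 0.0053), and then 42.7 ± 15.8 CPM in 4-PBA (-1.04 ± 0.30 against CVST+Ligation, unadjusted p = 0.0065). Penk and Tac1, peptide genes that are abundant in the striatum, were the genes with the smallest p among the lower ones (-1.88 ± 0.61, unadjusted p = 0.0124, and -1.32 ± 0.49, unadjusted p = 0.0235). The estimate for Penk was -2.55 ± 0.64 without CVST+Ligation mouse 3, and Tac1 met the threshold in 4 of the 6 fits that leave out a library. The 8 striatal markers summed to 409.9 to 1132 CPM in CVST, 140.3 to 208 CPM in CVST+Ligation and 124 to 559.6 CPM in 4-PBA, and their part in the values of Penk and Tac1 was not tested. Nor was the part of the midbrain, thalamic and cerebellar markers, described above, in the values of Nos1 and Kit.

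Between 4-PBA and CVST the same list had 5 genes higher and 1 lower, against 8.07% and 7.33% of all genes tested, and 4 and 1 stayed so in every fit that leaves out a library. The lower gene was Cplx3, a complexin found in Lamp5 cells and in deep cortical layers, with 6.59 ± 1.50 against 29.1 ± 5.31 CPM (-2.14 ± 0.55, unadjusted p = 0.00326). Sncg, a marker of a Cck class of interneurons that is also abundant in monoamine neurons, had 13.0, 229 and 20.2 CPM in 4-PBA against 2.63, 3.77 and 6.24 CPM in CVST (4.38 ± 1.11, unadjusted p = 0.00303). Most of this signal lay in 4-PBA mouse 2, without which the estimate was 1.98 ± 0.58 (unadjusted p = 0.00775). Chodl, which marks long-range Sst cells, had 3.13 ± 0.898 against 0.563 ± 0.142 CPM (2.47 ± 0.67, unadjusted p = 0.0047). No gene of this list passed adjustment in any of the 3 comparisons.

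Among the 16 receptors of the peptides, 1 was lower and 4 were higher after ligation at an unadjusted p below 0.05, against 4.18% and 5.47% of all genes tested. Of the same receptors 2 were lower and 5 higher between 4-PBA and CVST, against 7.33% and 8.07%. In every fit that leaves out a library, 1 stayed lower and 2 higher after ligation, and 2 lower and 3 higher between 4-PBA and CVST. Cckbr, the main cholecystokinin receptor of the cortex, had 39.0 ± 8.86 CPM in CVST, 16.4 ± 3.30 CPM in CVST+Ligation and 14.7 ± 3.98 CPM in 4-PBA. Both ligated groups lay below CVST without overlap (-1.25 ± 0.26, unadjusted p = 0.000831, and -1.41 ± 0.26, unadjusted p = 0.000369), with edgeR adjusted p-values of 0.250 and 0.0545. Vipr1, a receptor of vasoactive intestinal peptide, had 12.1 ± 2.30, 5.89 ± 3.58 and 3.32 ± 1.12 CPM, and its log2 fold change between 4-PBA and CVST was -1.86 ± 0.49 (unadjusted p = 0.00362).

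Vipr2 and Cckar, the other receptors of these peptides, had estimates in the other direction. Vipr2 had 0.376 ± 0.0506, 1.10 ± 0.350 and 2.30 ± 0.839 CPM in CVST, CVST+Ligation and 4-PBA (2.60 ± 0.47 between 4-PBA and CVST, unadjusted p = 0.000311, edgeR adjusted p = 0.0545). Cckar, a receptor found mainly in deep brain regions and the gut, had 1, 0 and 3 counts in the CVST mice, at or under the floor, 9, 31 and 7 counts in CVST+Ligation and 59, 161 and 38 counts in 4-PBA. Tacr3, the receptor of neurokinin B, had 1.66 ± 0.442, 4.53 ± 1.60 and 5.43 ± 2.84 CPM (1.45 ± 0.46 after ligation, unadjusted p = 0.0112). The somatostatin receptors Sstr1 to Sstr4 and the Npy receptors Npy1r, Npy2r and Npy5r had no unadjusted p below 0.05 in any comparison. No receptor passed adjustment in any of the 3 comparisons.

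Of 15 genes that process peptide precursors or build dense-core vesicles, 14 missed the unadjusted threshold after ligation, which 9.64% of all genes tested met. The exception was Pcsk2, a protease that cuts peptide precursors in these vesicles, with 543 ± 77.5 CPM in CVST, 329.5 ± 71.5 CPM in CVST+Ligation and 259.5 ± 24.9 CPM in 4-PBA. Its groups did not overlap with CVST in either comparison (-0.72 ± 0.18, unadjusted p = 0.00287, and -1.07 ± 0.18, unadjusted p = 0.000196), and the edgeR adjusted p was 0.294 and 0.0518. Pcsk1, the related protease, had 28.7 ± 0.298, 38.8 ± 6.31 and 45.6 ± 12.5 CPM (0.67 ± 0.21 between 4-PBA and CVST, unadjusted p = 0.0107, and 0.0552 without 4-PBA mouse 2). Cpe, which trims the cut peptides, had an estimate of -0.04 ± 0.18 after ligation. In total 2 genes were higher and 2 were lower between 4-PBA and CVST at an unadjusted p below 0.05, against 8.07% and 7.33% of all genes tested, and 0 and 1 stayed so in every fit that leaves out a library.

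Several neuropeptide genes are known to be transcribed more in active neurons, and a list of 15 early response genes of active neurons was read beside them. After ligation all 15 had estimates below 0, and 12 had an unadjusted p below 0.05, against 4.18% of all genes tested. Of these, 6 stayed below 0.05 in every one of the 6 fits that leave out a library, and 4 (Fos, Fosb, Egr2 and Egr3) did so in at most 2 of them, with Fos at an unadjusted p of 0.109 and Fosb at 0.116 without CVST mouse 1. The levels of all 15 summed to 2231, 931 and 2308 CPM in the CVST mice, to 635, 512 and 834 CPM in CVST+Ligation and to 444, 585 and 737 CPM in 4-PBA. CVST mouse 2 thus lay near the ligated mice, and 5 of the 15 genes were lower after ligation without overlap, against 7.21% of all genes tested. Egr1, an early response factor, had 429 ± 78.5 CPM in CVST, 139 ± 41.5 CPM in CVST+Ligation and 129 ± 36.6 CPM in 4-PBA (-1.63 ± 0.27 after ligation, unadjusted p = 0.000163, edgeR adjusted p = 0.166). Arc, which acts at synapses, had 216 ± 83.7, 62.5 ± 31.7 and 44.0 ± 9.28 CPM (-1.79 ± 0.42, unadjusted p = 0.00174). Npas4, a factor induced by calcium influx, had 111 ± 89.2, 6.23 ± 4.24 and 7.17 ± 3.16 CPM (-4.14 ± 0.97, unadjusted p = 0.00185). Between 4-PBA and CVST, 9 of the 15 were lower at an unadjusted p below 0.05, against 7.33% of all genes tested, and 7 of these 9 stayed so in every fit that leaves out a library. Without overlap 6 of the 15 were lower, against 11.5%. None passed adjustment. The cortical marker sums given above were lower in the same groups, and their part in these values was not tested.

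**Figure D4:**
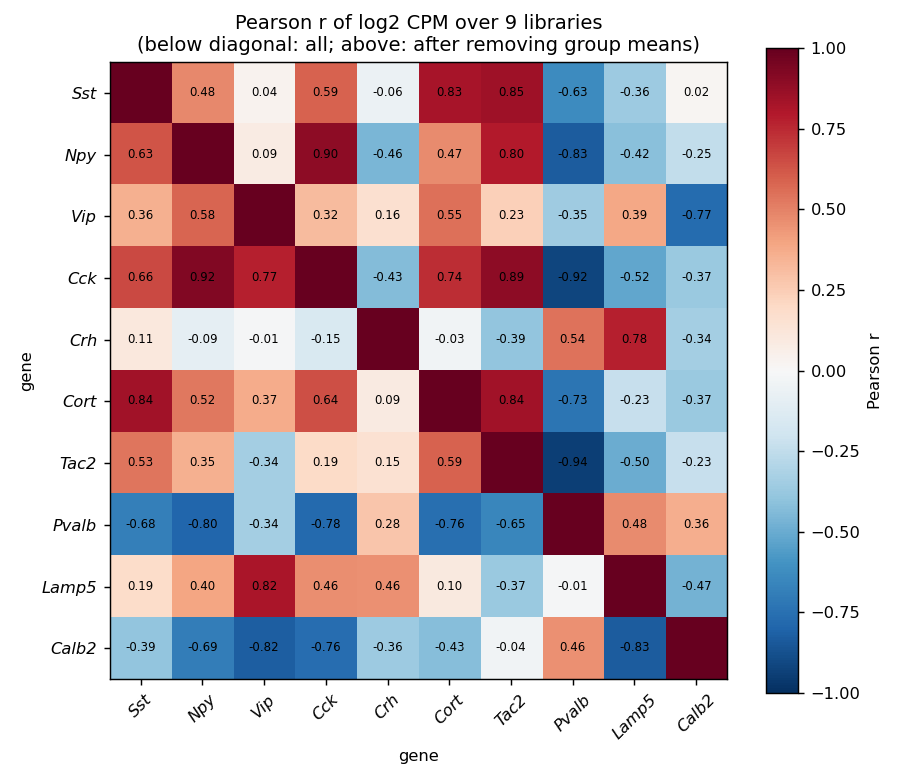
Pearson r of log2 CPM between pairs of interneuron genes over 9 libraries, below the diagonal for the values as they are and above it after subtracting each group's mean. Npy and Cck have the highest r below the diagonal (0.92) and Lamp5 and Calb2 the lowest (-0.83).

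The genes also varied together across the 9 libraries, given here as a description since the libraries share groups and 1 library with cerebellar genes. Npy and Cck were the most alike pair, with r = 0.92 over the 9 libraries, 0.90 after subtracting the group means and 0.88 without CVST+Ligation mouse 2. Sst and Cort, relatives in sequence and in the cells that make them, had r = 0.84, 0.83 and 0.71 in the same order. Vip and Lamp5 had r = 0.82 over the 9 libraries and 0.39 after subtracting the group means, and Vip and Cck had 0.77 and 0.32. Calb2 ran opposite to Lamp5 (r = -0.83), Vip (-0.82) and Cck (-0.76), and after subtracting the group means r was -0.47, -0.77 and -0.37.

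Some of these values rested on CVST+Ligation mouse 2. Tac2 and Pvalb had r = -0.65 over the 9 libraries and 0.24 without it, and Cck and Tac2 went from 0.19 to -0.72. For Cort and Pvalb r moved from -0.76 to -0.18.

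Over all genes tested, the gene outside this list whose pattern was most like that of Cck was Slc17a7, the vesicular glutamate transporter of cortical excitatory neurons (r = 0.984 over 9 libraries), followed by B4galnt1 (0.982). Slc17a7 had 1718 ± 279 CPM in CVST, 1086 ± 578 CPM in CVST+Ligation and 606 ± 111 CPM in 4-PBA. The nearest genes to Vip were Mapk10 (0.979) and Ltk (0.974), and those to Npy were Irf2bpl (0.988) and Pabpn1 (0.983). Lamp5 was nearest to Numb (0.977) and Neu2 (0.969), and Calb2 to Irx1 (0.974) and BC035947 (0.974). Sst was nearest to C4bp (0.973) and Abcb6 (0.971), and Cort to Wdr66 (0.983) and Nova2 (0.979). The lowest values were found for Tac2, with Mex3d (0.941) and Selenov (0.929), and for Crh, with Brinp3 (0.875) and Smim32 (0.874). Pvalb was nearest to Tbc1d17 (0.974) and Bend6 (0.971). With 9 libraries and 14746 genes to choose from, high values of r are found for any pattern, so these names describe the table and no relation between the genes.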

How the data were processed

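RNA from 9 mice was sequenced by the authors, who per the labels and methods filtered reads with fastp, aligned them to GRCm38 (mm10) with HISAT2, assembled transcripts with StringTie and quantified with RSEM. Versions and the annotation are not given in the sources used here. The methods name RSEM for transcript abundance without saying how the deposited gene counts were made, so genes with near copies have uncertain counts. The authors deposited raw counts per gene symbol and FPKM values, named TPM in the methods, which equal the count divided by the library total and 1 length per gene (17446 genes, 74.8% of lengths multiples of 3, column sums 780195 to 879696). Samples were grouped by their labels.

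The counts went into edgeR 4.0.16 (R 4.3.3) with TMM scaling, filterByExpr (14746 genes kept) and the quasi-likelihood test on the 3 group means. The common biological coefficient of variation was 0.287. A call is an adjusted p below 0.05 after Benjamini-Hochberg adjustment over all tested genes, and genes with an unadjusted p below 0.05 were counted beside it. CPM are on the TMM scale, log2 CPM used a prior count of 2, ± is SD for levels and SE for log2 fold changes. The floor of 3 counts covers counting error only. Replicates correlated with r of 0.946 to 0.982 in log2 CPM, and no pair was a repeat (chi-square per degree of freedom at least 22.3). The methods assign separate mice to sequencing.

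The 10 genes and all lists were chosen with earlier results of these data known. Named genes are the 10 genes, up to 4 genes of each list with the smallest p, and the 2 genes most alike to each. Genes named beyond this (Gad1, Lhx6, the region markers at 0 or high in 1 library, Cpe and receptors without a change) were picked as reference points after their values were seen. Fos, Fosb, Egr2 and Egr3 were named for meeting the unadjusted threshold in at most 2 of the fits that leave out a library. Alternatives were DESeq2 size factors, total counts, DESeq2 1.42.0, all genes with at least 1 count, at least 10 counts in every library, only the 2 groups compared, a replicate block, leaving out each library, and limma 3.58.1 on log2(FPKM + 1) or with 0.1 as the pseudocount. The fitting steps were tested on simulated data. Promoters of Crh and Calb2 were not used here, and 2 genes of the lists are not reported here. Plots were drawn with matplotlib 3.10.9 in Python 3.11.15.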

Additional observations from a re-analysis of the deposited data

How the results depend on the processing

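Of 457 values of single interneuron genes under the alternatives, 421 kept their direction and their side of the adjusted threshold. Only 1 of the 30 main values was called, so for most values keeping the side meant staying uncalled. That call, Vip between 4-PBA and CVST, was lost in 8 of its 16 alternatives. For the interneuron genes, calls after adjustment between 4-PBA and CVST numbered 1, and 0 with total counts, under the filter of 10 counts per library or with the replicate block, 2 with only the groups compared, 4 with DESeq2, and 0 to 3 over the fits leaving out a library. After ligation DESeq2 called 2 of the 10 where edgeR called 0. Lower genes at an unadjusted p below 0.05 after ligation numbered 2, and 3 with at least 1 count or at least 10 counts, 4 with the block, with DESeq2 and with both limma settings (2 to 4 leaving out a library, higher genes 1 to 2). Between 4-PBA and CVST, higher genes numbered 1, and 2 with only the groups compared (1 to 2 leaving out a library), and between 4-PBA and CVST+Ligation lower genes numbered 1 to 2 and higher genes 0 to 1 leaving out a library.

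Calls over all genes after ligation were 3, and 0 with at least 10 counts, 1 with the block, 1 with only the groups compared, 264 with DESeq2, 11 with limma at 0.1 and 0 to 7 leaving out a library. Between 4-PBA and CVST+Ligation they were 0, and 1 with the block, 22 with DESeq2, 2 with limma at 1 and 0 to 2 leaving out a library (unadjusted 476, with 256 to 1497). Between 4-PBA and CVST they were 18, and 112 with at least 1 count, 6 with at least 10, 234 with only the groups compared, 855 with DESeq2, 56 and 69 with limma at 1 and 0.1, and 2 to 541 leaving out a library. The cause was not tested.

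Leaving out a library turned the sign of the log2 fold change after ligation for Cort (-0.79 to 0.31) and Pvalb (-0.23 to 1.44), between 4-PBA and CVST+Ligation for Sst (-0.25 to 0.35), Npy (-0.60 to 0.43), Cort (-0.99 to 0.32), Pvalb (-1.02 to 0.65) and Calb2 (-0.66 to 0.57), and between 4-PBA and CVST for Crh (-0.13 to 0.31). In the comparison of 4-PBA with CVST+Ligation, limma at 1 and 0.1 gave 0.033 and 0.035 for Npy and 0.14 and 0.31 for Cort.

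Replicate numbers did not pair the mice. Deviations of same-numbered libraries from their group means correlated across genes with r = 0.04, 0.32 and 0.19 (CVST and CVST+Ligation), 0.13, 0.04 and 0.10 (CVST+Ligation and 4-PBA) and 0.03, -0.05 and -0.03 (CVST and 4-PBA). With the replicate block, Vip between 4-PBA and CVST had an edgeR adjusted p of 0.0521, and 25 genes were called in all. Below 0.166 CPM a level could not be told from 0 in the shallowest library, and 6 counts of Cort and 12 of Tac2 in CVST+Ligation mouse 2 limit what can be said of these genes.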
